A study of Mus musculus with 2 samples.

Results

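The genes described here are the 6 subunits of the replicative helicase (Mcm2, Mcm3, Mcm4, Mcm5, Mcm6 and Mcm7), the helicase cofactor Mcm10 and the helicase loaders Cdt1 and Cdc6. They were chosen by name and make up 9 of the 21924 protein-coding genes of the annotation. What was measured along each was H3K36me3, the trimethyl mark on lysine 36 of histone H3, read by ChIP-seq (sequencing of DNA pulled down with an antibody to the mark) in primary bone marrow-derived macrophages (BMDM) of C57BL/6J mice that had not been stimulated. There was 1 group of 2 biological replicates, so each value is given per replicate and no test between groups exists. The replicates are separate biosamples under a single donor record in the labels, and how far their spread is technical cannot be told apart from biology. The labels leave the sex and age of the mice uncollected and do not say which cells other than macrophages a culture held.

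In each cell cycle, the origin recognition complex marks replication origins and, with Cdc6 and Cdt1, loads the ring of Mcm2 to Mcm7 onto DNA during G1. Mcm10, Cdc45 and the GINS complex then help to turn the loaded ring into a running helicase, and geminin (Gmnn) holds Cdt1 back after S phase has begun. Transcription of these genes is known to rise as cells approach S phase, under E2F factors, and to be low in cells that have left the cycle. H3K36me3 is laid down behind elongating RNA polymerase II, so it lies along transcribed gene bodies and is usually low near their starts. A peak call gives no cell cycle phase, and in a mixed culture fewer marked cells and less mark per cell cannot be told apart.

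The sequences below show the summits of chosen peaks and the RNA genes that a peak in Mcm7 covered. Each line of the first set is a stretch of 151 bases centred on the summit of a gene's highest-enrichment peak, read 5′ to 3′ on the gene's strand from GRCm38.p6 (the same assembly as mm10), with exon bases in capitals. Mcm3 is shown for both replicates because its top summit was in an exon in each, Mcm6 because it had the highest enrichment of any replicate 2 peak in these genes, and Mcm5 because its call was made in replicate 1 alone. The stretches lie at chr1:20810057-20810207 (minus strand), chr1:20806703-20806853 (minus strand), chr1:128343587-128343737 (minus strand) and chr8:75124775-75124925 (plus strand).
Mcm3, replicate 1, exon 10: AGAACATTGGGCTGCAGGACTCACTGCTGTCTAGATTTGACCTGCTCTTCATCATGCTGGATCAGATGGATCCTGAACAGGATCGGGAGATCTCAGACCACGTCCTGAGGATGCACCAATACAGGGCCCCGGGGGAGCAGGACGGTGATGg
Mcm3, replicate 2, exon 13: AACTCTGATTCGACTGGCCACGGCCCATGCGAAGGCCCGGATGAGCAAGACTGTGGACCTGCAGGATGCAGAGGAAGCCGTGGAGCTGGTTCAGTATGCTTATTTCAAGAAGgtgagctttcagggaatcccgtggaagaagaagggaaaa
Mcm6, replicate 2, intron 9: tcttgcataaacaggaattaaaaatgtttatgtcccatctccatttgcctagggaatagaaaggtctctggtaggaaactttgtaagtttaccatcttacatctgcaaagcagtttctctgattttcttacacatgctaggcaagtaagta
Mcm5, replicate 1, exon 15: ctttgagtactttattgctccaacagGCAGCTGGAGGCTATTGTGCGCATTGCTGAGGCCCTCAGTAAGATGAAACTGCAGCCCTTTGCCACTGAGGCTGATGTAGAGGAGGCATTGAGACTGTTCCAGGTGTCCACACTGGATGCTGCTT

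Intron 13 of Mcm7 holds 3 microRNA genes, Mir106b, Mir93 and Mir25, on the same strand as their host. For each, 1 mature product is shown, because a single replicate 2 peak covered all 3 genes (described with Mcm7). The other mature product of each gene is not shown. Sequences are from RefSeq (GRCm38.p6), with the seed, bases 2 to 8, in capitals. The 5p products of Mir106b and Mir93 share 1 seed, AAAGUGC, and the 3p product of Mir25 has another, AUUGCAC.
mmu-miR-106b-5p: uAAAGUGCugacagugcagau
mmu-miR-93-5p: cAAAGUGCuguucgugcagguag
mmu-miR-25-3p: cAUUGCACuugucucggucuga

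The replicates' lists differ in size, which touches every value here. Replicate 1 holds 32098 peaks and replicate 2 holds 58505, and the files give no read depth. Of 8466 coding genes with a peak in at least 1 list, 8296 were covered more widely in replicate 2. The part of list size in each difference between replicates was not tested.

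Peaks covered a sizeable share of most of these genes in replicate 2 and of fewer in replicate 1. The covered share is the percent of bases between the annotated start and end of a gene that lie under peaks. A peak touched 5 of the 9 genes in replicate 1, 7 in replicate 2 and 4 in both (Mcm3, Mcm4, Mcm6 and Cdt1), and Cdc6 alone had none in either. Over all coding genes, 29.1% had a peak in replicate 1, 38.3% in replicate 2 and 28.8% in both. At least 20% of the body was covered in 2 of the 9 in replicate 1 (Mcm3 and Mcm4), against 7.64% of coding genes, and in 6 of the 9 in replicate 2 (Mcm2, Mcm3, Mcm4, Mcm6, Mcm7 and Cdt1), against 23.3%. Both replicates reached 20% at Mcm3 and Mcm4 only, 2 of 9, where 7.62% of coding genes did. The median covered share of the 9 was 2.46% in replicate 1 and 40.2% in replicate 2, while the median over all coding genes was 0% in both.

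The shares were also above those of genes of like size. The 9 bodies run from 5.54 kb (Cdt1) to 28.1 kb (Mcm6), and 9218 coding genes fall in that range of lengths. Among those, 31.5% had a peak in replicate 1, 41.6% in replicate 2 and 31.1% in both, and 11.1% reached 20% in replicate 1, 30.1% in replicate 2 and 11.1% in both. With 9 genes, 1 gene is 11.1% of the list, so these shares are a description and were not tested. The count of 2 genes in both replicates did not hold for stronger peaks alone: 0 reached 20% in both when peaks had to have a −log10 q of at least 5, or an enrichment of at least 3. Other genes were lost too: at those limits 1.44% and 4.85% of all coding genes, and 2.64% and 7.62% of those in the length range, reached 20% in both.

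**Figure D1:**
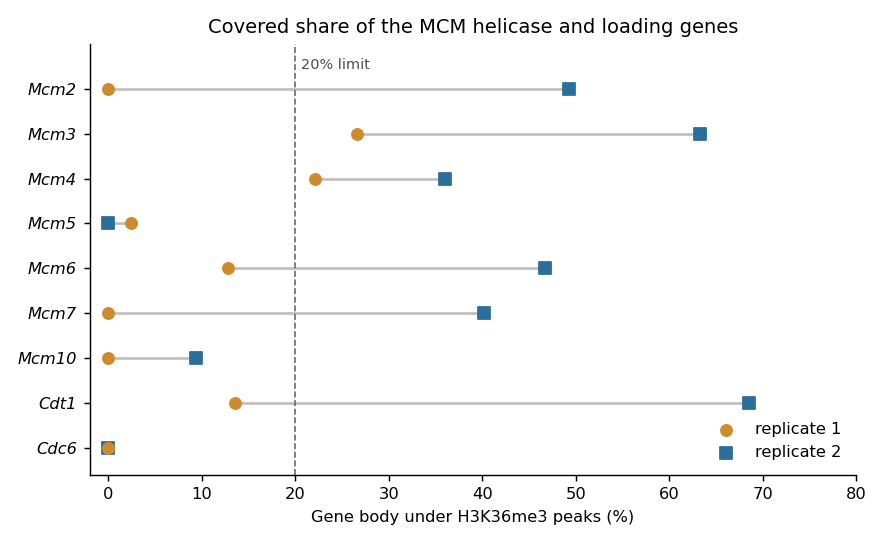
Percent of each gene body under H3K36me3 peaks (x axis) in replicate 1 (circles) and replicate 2 (squares), with a dashed line at 20%. Mcm3 and Mcm4 lie right of the line in both replicates, Mcm2 and Mcm7 go from 0% to 49.3% and 40.2%, and Cdc6 is at 0% in both.

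Among the helicase subunits, Mcm3 was the most widely covered. Its body (chromosome 1, 20802968 to 20820312, minus strand, mm10, 17 exons) was 26.6% covered in replicate 1 and 63.3% in replicate 2. In its length range 7.30% of coding genes were covered at least as widely in replicate 1 and 5.47% in replicate 2. Replicate 1 held 6 peaks there and replicate 2 held 7, and all 6 of the replicate 1 peaks had most of their length under replicate 2 peaks, from 52.0% to 100%. Of the covered bases in replicate 1, 88.4% were also covered in replicate 2. The highest enrichment was 3.93 in replicate 1, at the exon 10 summit shown above, and 4.69 in replicate 2, at the exon 13 summit. Enrichment is a ratio over background given by the authors' caller, used here to rank peaks within 1 list. In replicate 2 the calls ran almost without gaps from 6.72 kb to 15.7 kb past the gene start, as 4 peaks of 1000 to 3831 bp.

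Mcm4, whose product is part of the catalytic core of the ring, was the member whose replicates lay closest among the 4 with peaks in both. It was 22.1% covered in replicate 1 (5 peaks) and 36% in replicate 2 (4 peaks), on chromosome 16 from 15623897 to 15637400. The replicates did not place all of these calls alike. Of the replicate 1 bases, 52.5% lay under replicate 2 peaks, and the first replicate 1 peak, from 2.92 to 3.52 kb past the start, had no counterpart in replicate 2. The longest replicate 2 peak (2400 bp, enrichment 4.34), from 4.17 to 6.57 kb, had none in replicate 1. A further replicate 2 peak began 12 bases past the gene end. Prkdc, the DNA repair kinase gene that starts 465 bases away on the opposite strand, had 0% and 1.26% of its body covered.

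Mcm6 is the longest of the 9 and held the most peaks. Peaks took up 12.8% of its body in replicate 1 and 46.7% in replicate 2, over 6 and 12 peaks (chromosome 1, 128331590 to 128359664, minus strand). The replicate 2 peaks were spread from 5.29 kb past the start to 27.4 kb, while in replicate 1 the first lay 14.0 kb in, so the upstream part of the gene was called in replicate 2 alone. Of the replicate 2 peaks in these genes, the one of highest enrichment was here, with an enrichment of 5.21 and a −log10 q of 10.4, from 14.7 to 16.4 kb past the start. Its summit was in intron 9 and the stretch shown above has no exon base. A replicate 1 peak, with an enrichment of 2.44 in its own list, lay wholly inside it. Both replicates also had a peak upstream of Mcm6, ending 2399 and 2326 bases before its start. Replicate 2 had a further one, with an enrichment of 3.65, ending 3252 bases before the start. Those upstream peaks lie between Mcm6 and the 3′ end of the tRNA synthetase gene Dars, on the same strand, and were counted in neither gene.

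Mcm2 and Mcm7 were called in replicate 2 only. Mcm2 (chromosome 6, 88883474 to 88898780) had 0 peaks in replicate 1 and 5 in replicate 2, which covered 49.3% of its body with enrichments from 3.47 to 4.51. The neighbour Tpra1, 3470 bases away on the opposite strand, was covered in both replicates, at 38.7% and 46.0%. Mcm7 (chromosome 5, 138164583 to 138172422) likewise went from 0 peaks to 2 peaks over 40.2% of the body. In the length range, 13.0% of coding genes were covered at least as widely as Mcm2 in replicate 2 and 18.0% as widely as Mcm7.

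The Mcm7 peaks lay entirely past the midpoint of the gene. The one nearer the end (138165071 to 138166210, enrichment 3.79) had its summit in intron 13. It covered 100% of Mir106b, Mir93 and Mir25, and a mature sequence of each is given above. None of the 3 was covered in replicate 1 (0%), and all 3 were wholly covered in the authors' pooled list. Because microRNA genes and host share the strand and the intron, the peak cannot be assigned to one rather than the other. Mcm7 overlaps Cops6 by 64 bases at its 3′ end and Ap4m1 by 421 bases at its 5′ end, both on the opposite strand, and no peak base of Mcm7 lay in either overlap. A separate replicate 2 peak, inside Cops6, lay 279 bases past the end of Mcm7. Cops6 itself was 0% and 37.0% covered and Ap4m1 14.6% and 60.1%.

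Mcm5 stood apart from the other subunits. Its body (chromosome 8, 75109569 to 75128439, plus strand, 18.9 kb) was 2.46% covered in replicate 1 and 0% in replicate 2. The single replicate 1 peak, 465 bp long with an enrichment of 2.71, had its summit in exon 15, the stretch shown above. The single replicate 2 peak nearby, 392 bp with an enrichment of 3.31, began 1 base beyond the annotated gene end and so counted for nothing. Mcm5 was the only member covered more in replicate 1, and the pattern is rare: 168 of those 8466 coding genes were covered more in replicate 1. The authors' pooled list gave 6.93%. No gene overlaps Mcm5 and no other coding gene lies within 5 kb of it.

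**Figure D2:**
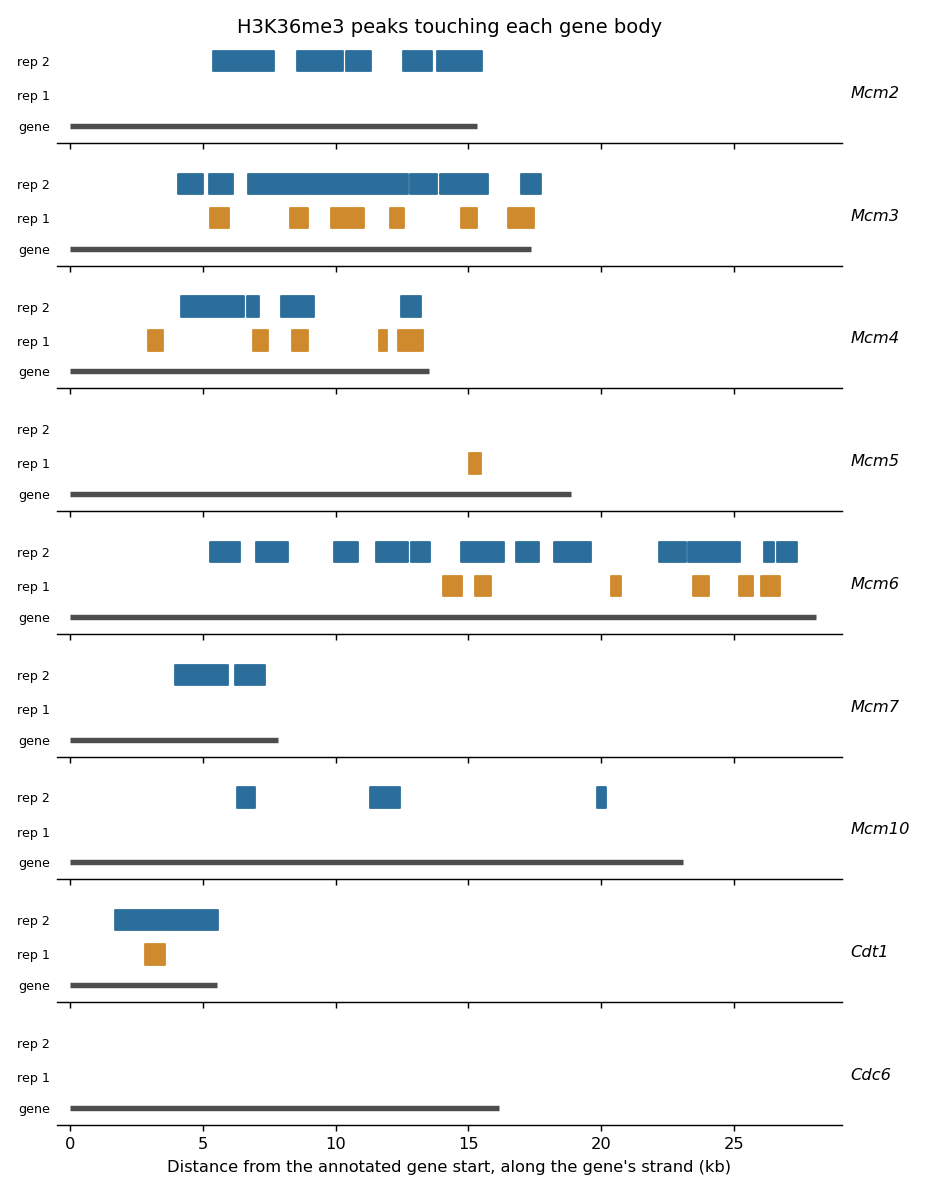
Positions of peaks touching each gene, as distance in kb from the annotated start along the gene's strand, for replicate 1 (lower bars) and replicate 2 (upper bars) above the gene body (grey line). No peak of either replicate lies in the first 1.69 kb of any of the 9 genes, and replicate 1 bars mostly fall within replicate 2 bars at Mcm3 and Cdt1.

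The helicase cofactor and the loaders ran from 0% to 13.5% in replicate 1 and from 0% to 68.5% in replicate 2. Mcm10 (chromosome 2, 4989714 to 5012791, minus strand, 20 exons) had 0% in replicate 1 and 9.33% in replicate 2, in 3 separate peaks of 353 to 1141 bp. In replicate 2, 36% of coding genes in the length range were covered at least as widely, a share close to the 41.6% with any peak. The pooled list gave 19.8%, more than either replicate alone.

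Cdt1, which brings the ring to the origin complex, had the highest covered share of the 9 in replicate 2. It was 68.5% covered there, in 2 peaks of 1930 and 1913 bp that ran from 1.69 kb past the start to 46 bases past the gene end. In replicate 1 it was 13.5% covered, by 1 peak of 750 bp that lay wholly under the first of those. In its length range 3.41% of coding genes were covered at least as widely in replicate 2 and 17.2% in replicate 1. The annotated body of Cdt1 (chromosome 8, 122568015 to 122573554, plus strand) lies entirely inside Gm20388, a 4.43 Mb coding gene model on the same strand. Gm20388 was 2.68% and 8.17% covered over its length. Aprt, the nearest other coding gene, 1080 bases past the end of Cdt1 on the opposite strand, had no peak (0% and 0%).

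Cdc6, the ATPase that recruits Cdt1 and the ring to origins, had no peak in either replicate, in the pooled list or in the replicated list. Its body spans 16.1 kb on chromosome 11, from 98907801 to 98923940. Both flanking coding genes on its strand were covered in replicate 2: the actin regulator gene Wipf2 at 9.07% and 36%, and the retinoic acid receptor gene Rara at 0% and 15.7%. The absence at Cdc6 is an absence of calls. Without read depth, the lists do not show how low the mark was there.

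**Figure D3:**
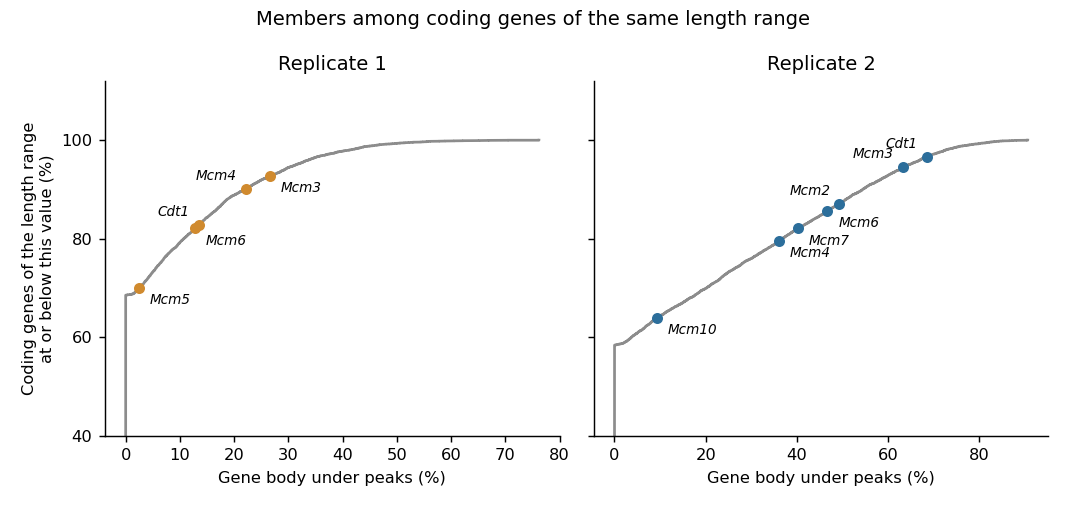
Cumulative share of the 9218 coding genes of 5.54 to 28.1 kb (y axis, from 40%) against the percent of the body under peaks, in each replicate, with the members that had a peak as points. In replicate 2 Cdt1 (68.5%) and Mcm3 (63.3%) sit near the top of the curve and Mcm10 (9.33%) just above the genes at 0%.

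Across the 9 genes the lists held 19 peaks in replicate 1 and 35 in replicate 2. Median peak length was 606 bp in replicate 1 and 1140 bp in replicate 2, against 743 and 987 bp over the whole lists. Median enrichment was 3.25 and 3.82, close to the medians of the whole lists (3.22 and 3.83). Of the 19 replicate 1 peaks, 15 touched a replicate 2 peak (78.9%, against 90.2% of all 32098 replicate 1 peaks), and 12 had at least 50% of their length under replicate 2 peaks (63.2%, against 84.8%). Of the 35 replicate 2 peaks, 13 touched a replicate 1 peak (37.1%, against 40.9% of 58505) and 4 had at least 50% of their length covered (11.4%, against 21.9%). The 4 replicate 1 peaks without a counterpart were 2 in Mcm4, 1 in Mcm6 and 1 in Mcm5. With so few peaks these shares were not tested.

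Calls avoided the start of these genes, as they mostly did at other covered genes of the length range. No member had a covered base in bin 1 of 10 equal bins along its body in either replicate, and in bin 2 only Mcm6 did, in replicate 2. Over coding genes of the length range with a peak, mean coverage of bin 1 was 0.358% in replicate 1 and 1.19% in replicate 2. The nearest peak began 1.69 kb past the start (Cdt1) to 6.30 kb (Mcm10) in replicate 2, and 2.85 kb (Cdt1) to 15.0 kb (Mcm5) in replicate 1. Of all covered member bases, 86.2% lay past the midpoint of the gene in replicate 1 and 65.6% in replicate 2. Over coding genes with a peak in the same length range the values were 72.3% and 69.3%. The members were above those values in replicate 1 and below them in replicate 2. Mean coverage of the 9 was highest in bin 6 in replicate 1 (24.8%) and in bin 7 in replicate 2 (60.1%), and in both it dipped in bin 8, to 4.55% and 34.6%. Each of these means rests on at most 7 genes with a covered base.

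**Figure D4:**
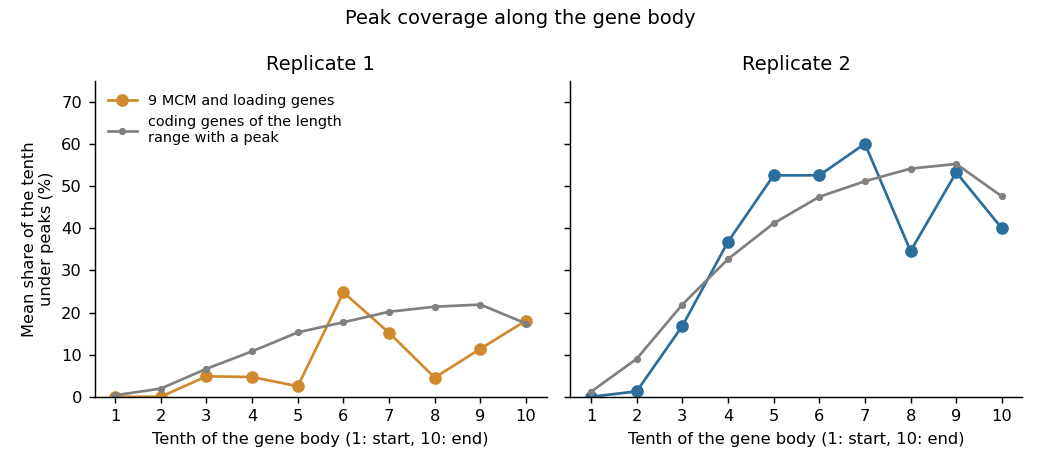
Mean percent under peaks in each of 10 bins of the gene body, from the start (1) to the end (10), for the 9 genes (coloured) and for 3867 coding genes of the same length range with a peak (grey), by replicate. Both lines start near 0%, and the 9 genes reach 60.1% in bin 7 in replicate 2.

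Most covered bases were intronic, while a larger share of exon than of intron sequence was covered. Counted over every annotated transcript of each gene, exons make up 29.8% of the 9 bodies. They held 36% of the covered bases in replicate 1 and 37.5% in replicate 2. Put per base, 10.3% of exon bases and 7.76% of intron bases were covered in replicate 1, and 39.4% and 27.9% in replicate 2. Position along the gene was not matched between them, and the difference was neither tested nor set beside that of other coding genes. Summits, placed on the longest coding transcript, fell in exons for 6 of 19 replicate 1 peaks and 9 of 35 replicate 2 peaks. In replicate 2 the exon share of covered bases ran from 20.7% in Mcm6 to 65.7% in Cdt1, the gene with the largest exon share of its body (56.7%).

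Windows at the RefSeq starts of 6 members hold elements of the kind bound by E2F factors, with no H3K36me3 call over them. The RefSeq promoter table (GRCm38.p6, 250 bases before to 50 after each start) held windows for 8 of the 9, all but Mcm4, and for Mcm7 it held 2. The 8-base elements TTTGGCGC, TTTCGCGC, TTTCCCGC and TTTGCCGC were searched on both strands, overlaps allowed. At least 1 was found at 6 of the 8 genes (Mcm3, Mcm5, Mcm6, Mcm7, Cdt1 and Cdc6). Counted by window, 6 of 9 held one (66.7%), against 2.26% of all 32851 windows. None was found in the windows of Mcm2 and Mcm10. None of the 9 windows had a base under a peak in either replicate (0), and neither did most windows: 1.17% of all 32851 had one. The RefSeq starts are not all the starts of the bodies used above. Those of Mcm7 lie 539 and 1156 bases inside its body and that of Cdc6 lies 350 bases inside, while those of the other members matched lie within 60 bases of the body start. The element nearest to each start is shown in capitals with up to 11 bases on either side, on the gene's strand, because the 6 genes that hold one range from Cdc6, without a peak, to Cdt1 and Mcm3, the most widely covered.
Mcm3, chr1:20820275-20820304: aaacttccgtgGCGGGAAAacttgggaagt
Mcm6, chr1:128359734-128359763: gattggacgggTTTGGCGCgaagtagctca
Mcm7, chr5:138171849-138171878: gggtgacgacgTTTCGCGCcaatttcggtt
Mcm5, chr8:75109349-75109378: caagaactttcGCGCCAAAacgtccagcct
Cdt1, chr8:122568036-122568064: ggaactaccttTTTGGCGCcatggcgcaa
Cdc6, chr11:98908002-98908031: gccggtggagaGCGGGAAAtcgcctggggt

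In replicate 2 the other lists of cell cycle genes had lower medians than the 9, and in replicate 1 the list of licensing genes had a higher one. Of 23 genes of origin licensing, firing and helicase partners, 15 had a peak in replicate 1 and 19 in replicate 2, and 1 and 10 reached 20%, with medians of 4.38% and 13.2%. Gins4, a subunit of the GINS complex (19.1% and 71.2%), Mcmbp, which binds the MCM ring (26.8% and 47.8%), and the origin recognition subunit gene Orc3 (14.4% and 41.2%) were highest. The Cdt1 inhibitor gene Gmnn, named after its values were seen, was at 7.11% and 27.8%. Cdc7, the kinase gene that fires origins, and Gins1 were at 0% in both replicates. Mcm8 and Mcm9, which encode the paralogous helicase of DNA repair, were named after their values were seen and were at 0% in both and at 2.36% and 13.2%.

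Of 37 replication fork and S phase genes, 13 and 24 had a peak and 2 and 16 reached 20%, with medians of 0% and 8.49%. The maintenance methyltransferase gene Dnmt1 (34.5% and 60.4%) led, with the clamp loader subunit gene Rfc3 (16.7% and 64.1%) and the polymerase delta subunit gene Pold3 (20.8% and 52.9%), while Dut, of nucleotide synthesis, was at 0% in both replicates. Of 28 G1/S regulator genes, 15 and 19 had a peak and 1 and 11 reached 20%, with medians of 0.839% and 8.82%. The cyclin-dependent kinase gene Cdk4 (37.7% and 70.1%), the phosphatase gene Cdc25a (19.1% and 63.3%) and the cyclin-dependent kinase inhibitor gene Cdkn1a (18.2% and 50.6%) were highest, which puts 2 drivers and 1 inhibitor of the cycle at the top of the list. The D-type cyclin genes Ccnd2 and Ccnd3 were at 0% in both replicates.

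Genes of G2 and mitosis were lowest of the cell cycle lists by the replicate 2 median and by the share at 20%. Of 40, 10 and 21 had a peak. That is 25.0% and 52.5%, against 29.1% and 38.3% of all coding genes, so below in replicate 1 and above in replicate 2. In this list 1 and 4 genes reached 20%, with medians of 0% (as for the fork genes) and 1.17%. The kinesin gene Kif20a (28.7% and 42.0%), the centromeric histone gene Cenpa (10.9% and 22.2%) and the condensin subunit gene Smc4 (7.55% and 21.9%) were highest. Anln and Aurkb, of cytokinesis and chromosome segregation, were at 0%. So were Mki67, which encodes the proliferation antigen Ki-67, and Top2a, the topoisomerase gene of mitotic chromosomes, both named after their values were seen. Other genes of this list went the other way, also named after their values were seen. They include Cdk1 (0% and 22.9%), Ccna2 (18.0% and 7.44%) and Cdc20 (9.48% and 8.38%). In this list, 19 of the 40 had no peak in either replicate. The share of genes at 20% in replicate 2 was 66.7% for the 9 members, 43.5%, 43.2% and 39.3% for the lists of licensing, fork and G1/S genes, and 10.0% for G2 and mitosis genes, against 23.3% of all coding genes. In replicate 1 the shares were 22.2%, 4.35%, 5.41%, 3.57% and 2.50%, against 7.64%. By genes with any peak the order differed. The licensing list had 65.2% and 82.6%, above the 55.6% and 77.8% of the members. The fork list had 35.1% and 64.9%, and the G1/S list 53.6% and 67.9%. A peak in both replicates lay at 44.4% of the members, 65.2% of licensing, 35.1% of fork and 53.6% of G1/S genes. For G2 and mitosis genes it was 25.0%, against 28.8% of all coding genes. Gene length was not matched between the lists. In the members' length range, 11.1% of coding genes reached 20% in replicate 1 and 30.1% in replicate 2. The differences between lists were not tested, and whether the cells were dividing was not tested either.

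**Figure D5:**
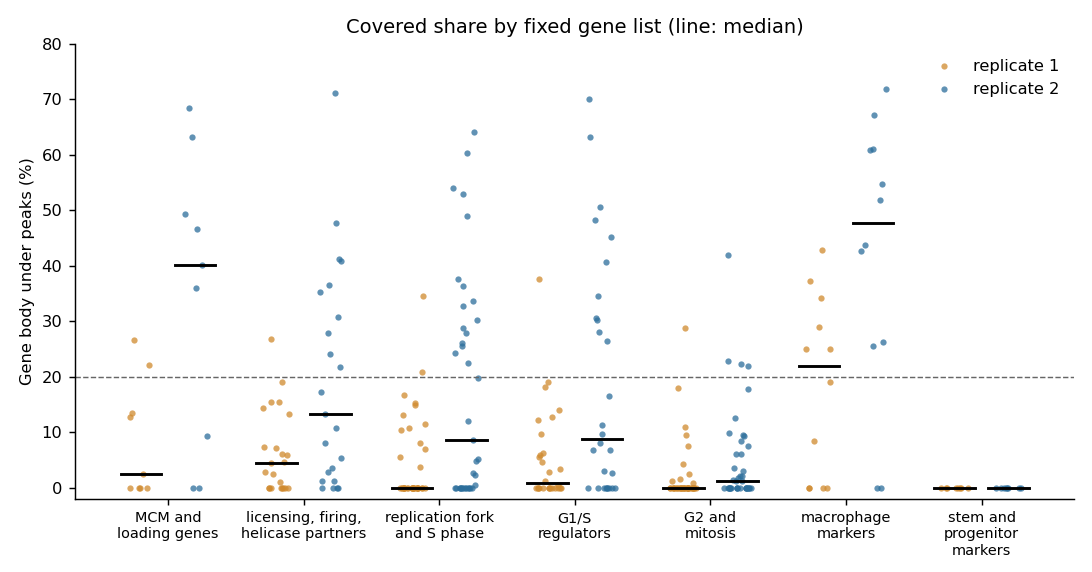
Percent of the gene body under peaks for each gene (points) of 7 sets in replicate 1 (left of each pair) and replicate 2 (right), with the median as a line and a dashed line at 20%. In replicate 2 the median is 40.2% for the 9 members, 13.2% for their licensing partners, 1.17% for G2 and mitosis genes, 47.7% for macrophage markers and 0% for stem and progenitor markers.

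Markers of the labelled cell type were widely covered and those of other cells were not. Of 12 macrophage markers, 8 had a peak in replicate 1 and 10 in replicate 2, and 6 and 10 reached 20%, led by Ctss (42.8% and 71.8%), Fcgr1 (34.2% and 67.2%) and Trem2 (37.3% and 60.8%). The complement gene C1qa was at 0% in both. Of 47 markers of stem and progenitor, T, B, neutrophil, fibroblast and erythroid cells, 0 reached 20% in either replicate and 2 had a peak, the T cell gene Cd28 (12.5% and 16.0%) and the erythroid gene Epb42 (0.975% and 2.75%). All 8 stem and progenitor markers, among them Kit, Cd34 and Flt3, were at 0% in both replicates.

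The coding genes whose profile was most like that of Mcm3, the member with the highest mean covered share (45.0%), were Cramp1l, Colgalt1 and Usp42. Likeness was the Euclidean distance over 20 values, the covered percent of each of the 10 bins in both replicates. It was taken over the 17779 coding genes with bodies of 5 kb or more. The distances were 56.9, 71.5 and 72.6 percentage points. The median over all those genes was 257, which is the distance from Mcm3 to a gene with no covered base. It therefore does not show how unusual such likeness is among covered genes. Their covered shares were 25.1% and 64.7% for Cramp1l, 28.4% and 61.4% for Colgalt1, and 17.5% and 58.5% for Usp42.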

How the data were processed

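The authors deposited 4 peak lists on mm10: 1 per replicate, called on that replicate alone and kept when found in pseudoreplicates, a pooled list and a replicated list, per the text files deposited with them. Which aligner and caller made them is not given in the sources used here. For every peak the authors deposited a display score (not used), an enrichment as a ratio over background, and −log10 p and −log10 q values. The lists hold no read counts, so depth is unknown and no counting interval is given.

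Gene bodies are GENCODE M21 records on the reference chromosomes (GRCm38), the longest where records share a symbol. The covered percent is the share of a body under the union of peaks. Exon numbers, and the exon or intron given for a summit, follow the longest coding transcript. Exon bases, and the capitals in the peak stretches, are exons of any annotated transcript of the gene. The members, gene lists and 20% limit were chosen with earlier results of these data known. Named genes are all 9 members, their overlapping and nearest genes, and the 3 highest and 2 lowest of each list, some of which are not reported here. Of the listed markers, Trac had no coding record. Values come from Python 3.11.15, numpy 2.4.6 and pandas 2.3.3, with the interval code tested on simulated data. Alternatives were stricter peaks, other lists, 10% and 50% limits, other gene bodies and each replicate left out.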

Additional observations from a re-analysis of the deposited data

How the results depend on the processing

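The count of members at 20% or more in both replicates was 2. It was 0 with peaks of a −log10 q of at least 5, 0 with an enrichment of at least 3, 6 in the pooled list, 6 in the replicated list, 4 from a 10% limit and 0 from a 50% limit, and with 1 replicate left out it ran from 2 (without replicate 2) to 6 (without replicate 1). The count of members with a peak in both replicates was 4, and it was 8 in the pooled list, 8 in the replicated list and from 5 to 7 with 1 replicate left out. The median covered share, 24.7% over the mean of the replicates, was 55.3% in the pooled list, 49.1% in the replicated list, 40.2% without replicate 1 and 2.46% without replicate 2. The share of covered bases past the midpoint was 70.0% over the summed bases of both replicates, most of which came from replicate 2. With 1 replicate left out this share ran from 65.6% to 86.2%. A combined list has no replicates, so its counts are of members called in that list. Shares over all coding genes were not computed for the combined lists or for the 10% and 50% limits. Those member counts therefore do not show how far the members differ from other genes. The median over all coding genes was 0% in the pooled list and in the replicated list. The cause of these shifts was not tested. Restricting to the longest coding transcript or to bases under no other gene moved none of these counts by more than 1.5 times, but the latter leaves no base of Cdt1, which lies inside Gm20388. An alternative chosen after seeing the data, which ignores gene models of 1 Mb or more, restores it. Of single members, with the stricter q Mcm4 went from 29.0% to 18.5% and Mcm3 from 45.0% to 20.4%. In the pooled list 4 members moved by more than the standard deviation of their 2 replicates. They were Mcm4 (to 62.1%), Mcm6 (from 29.8% to 57.0%), Mcm5 (from 1.23% to 6.93%) and Mcm10 (from 4.66% to 19.8%). In the replicated list 3 moved by more than this deviation: Mcm4 to 53.8%, Mcm5 to 6.93% and Mcm10 to 17.9%. No paired analysis was possible because there is 1 group. Depth is unknown, so a member without a peak was not called rather than shown to lack the mark.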
